A study of Mus musculus with 6 samples.

Results

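The FOS and JUN genes of the AP-1 family were followed by symbol through a count table of 27482 genes. All 7 members (Fos, Fosb, Fosl1, Fosl2, Jun, Junb and Jund) were in the table, and all 7 were among the 14663 genes that passed the low-count filter and were tested. The table holds 6 RNA-seq libraries from material labelled as heart of male mice. In 3 libraries the mice had received the vector AAV9-hFNDC4 (genotype label FNDC4 overexpression), and in 3 the vector AAV9-CTRL (genotype label Control). AAV9 is an adeno-associated virus used to carry genes into tissue, and FNDC4 is a secreted protein with a fibronectin type III domain. Both groups underwent ischemia/reperfusion (I/R), in which blood flow to the heart is stopped and then restored, and tissue was collected 24 h afterwards. No library without I/R and no other time was analysed here. Strain, age, vector dose, the promoter of the vector and the number of animals behind each library are not given in the labels used here. The p-values therefore rest on library-to-library spread alone, part of which can be technical.

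AP-1 is a family of dimeric transcription factors built from bZIP proteins. A FOS protein pairs with a JUN protein through a leucine zipper, the pair binds DNA at TGACTCA-type sites, and JUN proteins can also pair with each other. Fos, Fosb, Jun and Junb are classic immediate early genes, whose transcripts rise and decay quickly after growth factors, stress or calcium signals, while Fosl1, Fosl2 and Jund are as a rule slower or more steady. In the heart, AP-1 genes are known to be induced by reperfusion and by mechanical load.

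Total counts lay between 32975817 and 36074046 per library. The libraries labelled AAV9-CTRL had more detected genes (20431 to 20870) than those labelled AAV9-hFNDC4 (18717 to 18863). From a list of 18 cardiomyocyte genes, 3 (Tnnt2, Ttn and Myh7) were at 1 CPM or more in 3 or more libraries. The whole list summed to 55.7 to 57.8 CPM under AAV9-CTRL and 48.3 to 50 CPM under AAV9-hFNDC4. Myl7, Pln and Nkx2-5 had no counts, and Myh6, the main cardiac myosin, had 57 counts over all 6 libraries. These levels go against the tissue label, so the groups are called by their vector labels and no value is assigned to heart muscle. Fibroblast markers summed to 3632 to 3839 CPM under AAV9-CTRL and 8600 to 9468 CPM under AAV9-hFNDC4. Most of that difference was Fn1 (mean 1789 and 5767 CPM). Of 5 fibroblast markers tested, 4 (80%) were called higher, beside 22.1% of all genes tested, and Col1a1 had no call. Those called beside Fn1 were Col3a1 (log2 fold change 0.91), Pdgfra (1.21) and Col1a2 (0.44). Dcn, Lum, Postn and Tcf21 had 1 to 25 counts over all libraries. Mural cell markers summed to 282 to 344 and 568 to 636 CPM, nearly all from Pdgfrb and Cspg4. The smooth muscle genes Acta2, Myh11, Cnn1 and Tagln were each under 1 CPM, and Tagln was lower (log2 fold change -1.80, edgeR adjusted p = 0.0357). Leukocyte markers summed to 34.8 to 42.1 and 19.6 to 22.6 CPM. Most of that difference was Cd68 (mean 26.4 and 12.3 CPM). Itgam went from 1.59 to 0 CPM, while Lyz2 was at 7.20 and 7.46 CPM. Ptprc had 19 counts and Adgre1 6 over all libraries. Endothelial markers summed to 4.61 to 7.33 and 3.95 to 5.78 CPM, with Emcn at 0. In bulk RNA, fewer cells of a type and less RNA per cell cannot be told apart. The summed levels did not overlap between the vector labels except for the endothelial markers. Of all single genes tested, 29.5% did not overlap on the lower side and 27.1% on the higher side. The part of the marker levels in the results below was not tested. The overexpressed gene itself was not analysed here.

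Promoter sequence was at hand for 6 of the 7 members, all but Fosl1, as RefSeq windows on GRCm38.p6. Of these, the members called lower are shown first, and Fosl2 last. Early gene promoters are known for short cyclic AMP response elements (CRE) close to the start site. Whether such elements bear on the changes was not tested. Each window is the 120 bases before the start used in the RefSeq promoter table, 5′ to 3′ on the gene's strand, with matches to TGACG (the CRE core), TGACNTCA (a full CRE or its JUN-type variant) and TATAAA in capitals.
Fos, chr12:85473770-85473889, plus strand: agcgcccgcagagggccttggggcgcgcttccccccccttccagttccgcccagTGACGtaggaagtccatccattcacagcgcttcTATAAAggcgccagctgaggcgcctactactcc
Fosb, chr7:19310046-19310165, minus strand: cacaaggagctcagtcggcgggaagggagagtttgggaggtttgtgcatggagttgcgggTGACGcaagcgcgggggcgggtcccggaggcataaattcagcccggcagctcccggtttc
Jun, chr4:95052223-95052342, minus strand: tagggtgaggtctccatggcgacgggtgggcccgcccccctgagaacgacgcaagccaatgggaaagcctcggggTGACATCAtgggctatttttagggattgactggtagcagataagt
Junb, chr8:84978749-84978868, minus strand: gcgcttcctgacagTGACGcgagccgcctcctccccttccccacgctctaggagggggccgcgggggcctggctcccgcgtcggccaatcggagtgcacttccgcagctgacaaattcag
Fosl2, chr5:32136352-32136471, plus strand: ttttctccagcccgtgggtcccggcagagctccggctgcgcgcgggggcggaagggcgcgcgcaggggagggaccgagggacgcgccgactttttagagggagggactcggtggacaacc

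Counted from -1 at the base before that start, TGACG began at -66 in Fos, -60 in Fosb and -106 in Junb, and TGACATCA began at -45 in Jun. Fos held another TGACG at -129, upstream of the bases shown, and its TATAAA began at -33. In Junb, TATAAA began at the RefSeq start itself. CCAAT began at -65 in Jun and at -36 in Junb. The window of Fosl2, the member that rose, held no match to these motifs, and neither did that of Jund, whose RefSeq start lies upstream of the GENCODE start. The GENCODE start of Fosl2 lies upstream of the bases shown. For Fosb, the outermost RefSeq start (19310118) lies inside the window, upstream of its TGACG, and the GENCODE start (19310051) lies inside it too, downstream of TGACG. Over 32851 windows of 250 bases before to 50 bases after a start, TGACG was present in 20.8% and TGACNTCA in 8.83% on either strand, CCAAT in 37.4%, and TATAAA on the gene's strand in 8.32%. TGANTCA, the AP-1 site, was present in 7.81% and the CArG box, the site of serum response factor, in 1.63%. Neither was matched in the members' windows. Sites farther upstream or downstream lay outside the search, so it cannot show that a gene lacks them. The searched letters are short, so a match is a description of the window and not a bound site.

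Across the family, 5 members were lower under AAV9-hFNDC4, 1 was higher and 1 did not pass the test (edgeR quasi-likelihood test, Benjamini-Hochberg adjusted p under 0.05). Fos and Fosb fell by 51.3-fold and 33.0-fold, Jun by 6.29-fold, Fosl1 by 2.35-fold and Junb by 1.99-fold, while Fosl2 was 1.57-fold higher and Jund showed no call. Over all genes tested, 25.0% were called lower and 22.1% higher, so a call alone is common in these libraries. Without overlap between the groups were 29.5% of all genes on the lower side and 27.1% on the higher side. The middle 90% of all genes lay between -1.41 and 1.25 on the log2 fold change scale, with a median of 0.01. Fos, Fosb and Jun lay below that range, and the other 4 members within it.

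**Figure D1:**
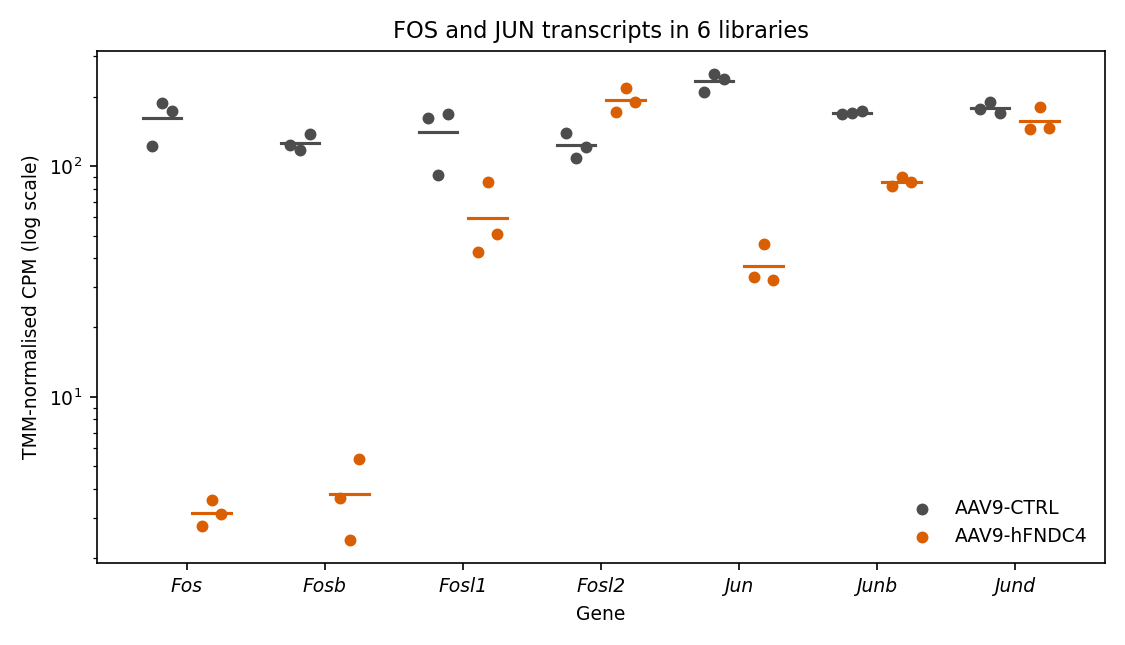
TMM-normalised CPM (log scale) of the 7 genes in each library, with AAV9-CTRL in grey and AAV9-hFNDC4 in orange; points are libraries and horizontal lines are group means (n = 3). Fos and Fosb fall from above 100 CPM to between 2.41 and 5.40 CPM, Fosl2 goes the other way, and the groups of Jund overlap.

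Fos encodes the founding FOS protein, which cannot pair with itself and needs a JUN partner (chromosome 12, 85473890 to 85477273, plus strand, 4 exons, GENCODE vM21 on GRCm38). Its level was 122, 188 and 174 CPM in AAV9-CTRL replicates 1 to 3, and 2.75, 3.57 and 3.10 CPM in AAV9-hFNDC4 replicates 1 to 3. The lowest AAV9-CTRL library thus stood far above every AAV9-hFNDC4 library, and the groups did not overlap. The means were 161 ± 34.8 and 3.14 ± 0.414 CPM (SD, n = 3 each), which is a log2 change of -5.68 with SE 0.20 and an adjusted p of 2.30e-08 (edgeR, Benjamini-Hochberg). The AAV9-hFNDC4 values rest on 103, 129 and 114 counts, so Fos was detected in every library. Among all genes tested, the fold change of Fos stood at the 0.754 percentile from the lower end.

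Fosb, the paralog of Fos, is also known for a truncated splice form that is long-lived in tissue (chromosome 7, 19302696 to 19310051, minus strand). Counts per gene do not separate the forms. Fosb was at 124, 117 and 137.5 CPM under AAV9-CTRL and at 3.63, 2.41 and 5.40 CPM under AAV9-hFNDC4. All 3 AAV9-CTRL libraries lay close together, and the groups did not overlap. The log2 fold change was -5.05 with SE 0.24 and an adjusted p of 2.47e-07 (edgeR, Benjamini-Hochberg), from 126 ± 10.4 to 3.82 ± 1.51 CPM.

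Fosl1 encodes FRA-1, a FOS protein that lacks the transactivation domain of FOS (chromosome 19, 5447547 to 5455946, plus strand). Its levels were 161, 91.1 and 168 CPM under AAV9-CTRL and 42.5, 85.2 and 51.0 CPM under AAV9-hFNDC4. The libraries of each group spread widely. Replicate 2 was the lowest AAV9-CTRL library and the highest AAV9-hFNDC4 library, so the groups nearly met without overlapping. The log2 fold change was -1.23 with SE 0.28 and an adjusted p of 0.00604 (edgeR, Benjamini-Hochberg), and the call was lost without the low-count filter (adjusted p = 0.101). Of its exon bases, 62.4% overlap Ccdc85b on the other strand. With no stated strand setting, reads of the overlapping genes cannot be told apart. Ccdc85b itself stood at 22.6 ± 10.5 CPM under AAV9-CTRL and 24.7 ± 4.21 CPM under AAV9-hFNDC4 (edgeR adjusted p = 0.730, and 0.0242 without AAV9-CTRL replicate 2, when its log2 fold change was 0.56).

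Fosl2 encodes FRA-2, the other FOS protein without that domain (chromosome 5, 32135801 to 32157842, plus strand). It was the member that rose, with 140, 108 and 121 CPM under AAV9-CTRL and 171, 219 and 190 CPM under AAV9-hFNDC4. Every AAV9-hFNDC4 library was above every AAV9-CTRL library. The means were 123 ± 15.8 and 193 ± 24.0 CPM, which is a log2 change of 0.65 with SE 0.13 and an adjusted p of 0.00139 (edgeR, Benjamini-Hochberg). With a correction for exon length it was 0.39 (adjusted p = 0.0114). Fosl2 therefore changed in the opposite direction to its paralogs, within the same libraries.

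Jun encodes the JUN protein, the partner with the strongest transactivation of its class, and has no intron (chromosome 4, 95049034 to 95052222, minus strand). Its level was 210.5, 251 and 238.5 CPM under AAV9-CTRL and 33.3, 45.8 and 32.2 CPM under AAV9-hFNDC4. Each AAV9-CTRL library was above each AAV9-hFNDC4 library by a wide margin. The log2 fold change was -2.65 with SE 0.15 and an adjusted p of 6.94e-07 (edgeR, Benjamini-Hochberg), from 233 ± 20.6 to 37.1 ± 7.56 CPM. Junos, a noncoding RNA that starts beside Jun on the other strand and shares 232 bases with it, was higher, at 21.9 ± 2.83 against 13.2 ± 2.11 CPM (log2 fold change 0.73, edgeR adjusted p = 0.00289).

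Junb, a JUN protein with weaker transactivation that can also restrain JUN, has no intron either in its coding transcript (chromosome 8, minus strand). Its GENCODE gene range, 84974484 to 84978718, is wider than its 1809 exon bases, and RefSeq places it at 84976909 to 84978748. Junb was at 168, 170 and 172.5 CPM under AAV9-CTRL and at 81.8, 89.5 and 85.5 CPM under AAV9-hFNDC4. The 3 libraries of each group lay close together, and the groups did not overlap. The log2 fold change was -0.99 with SE 0.10 and an adjusted p of 2.49e-05 (edgeR, Benjamini-Hochberg), and -0.75 with the exon length correction.

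Jund, the JUN gene that is expressed steadily in most tissues, lies on the same chromosome (chromosome 8, 70698949 to 70700616, plus strand). It stood at 177, 191 and 170 CPM under AAV9-CTRL and at 145, 181 and 146 CPM under AAV9-hFNDC4. The groups overlapped, since AAV9-hFNDC4 replicate 2 was above AAV9-CTRL replicates 1 and 3. The log2 fold change was -0.19 with SE 0.11 and an adjusted p of 0.202 (edgeR, Benjamini-Hochberg). It was -0.29 without AAV9-hFNDC4 replicate 2, which made it a call (adjusted p = 0.0491), and 0.10 with the exon length correction, which turned its sign (adjusted p = 0.480). Of the exon bases of Jund, 52.6% overlap Gm11175 on the other strand, a gene that was not in the count table.

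**Figure D2:**
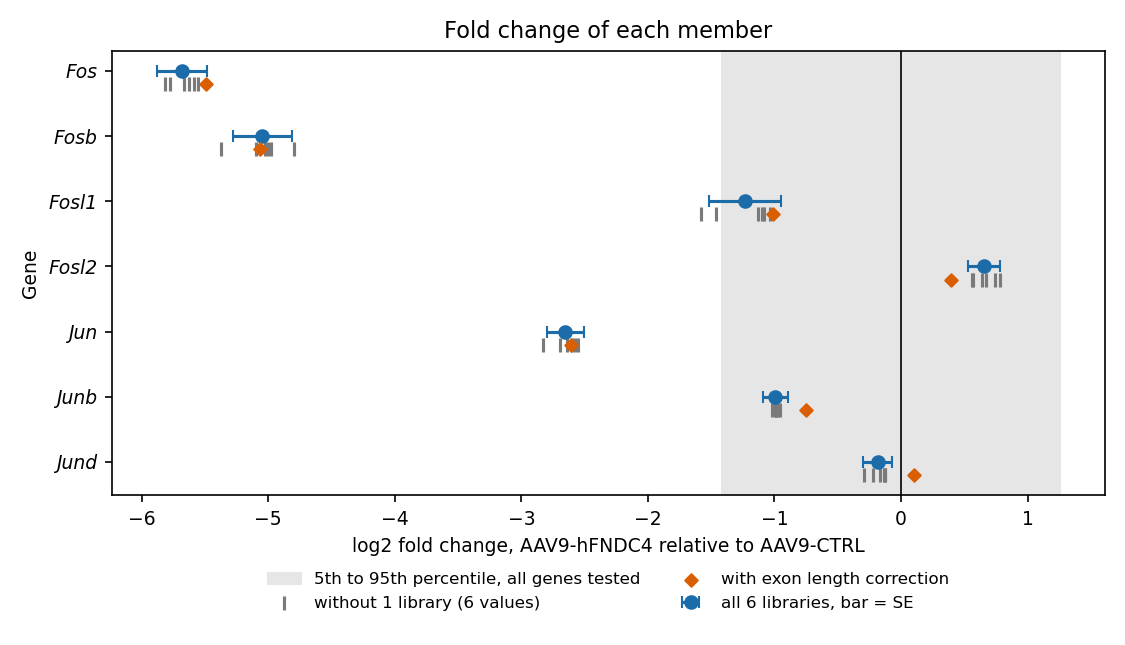
Log2 fold change of each gene, AAV9-hFNDC4 relative to AAV9-CTRL; blue points use all 6 libraries with bars of ±1 SE, grey ticks leave out 1 library each, orange diamonds add the exon length correction, and the grey band holds the 5th to 95th percentile of all genes tested. Fos, Fosb and Jun lie outside the band in every setting drawn, while the diamond of Jund lies on the other side of 0.

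Fold changes in these libraries moved with exon length, so the members were set beside genes of like length. Over 13370 tested genes with a known length, the median log2 fold change ran from -0.49 in the shortest 10% to 0.46 in the longest 10%. Fosl2, the longest member at 6537 exon bases, lies in decile 9 of length, where the median was 0.27. Jund, the shortest member at 1668 bases, lies in decile 2, where it was -0.34. Fos, Fosl1 and Junb share decile 3, with a median of -0.19 and a 5th percentile of -1.36, and of these Fos alone lay below that percentile. With the length correction, Fos stood at -5.49, Fosb at -5.06, Jun at -2.61 and Fosl1 at -1.01, all still called.

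**Figure D3:**
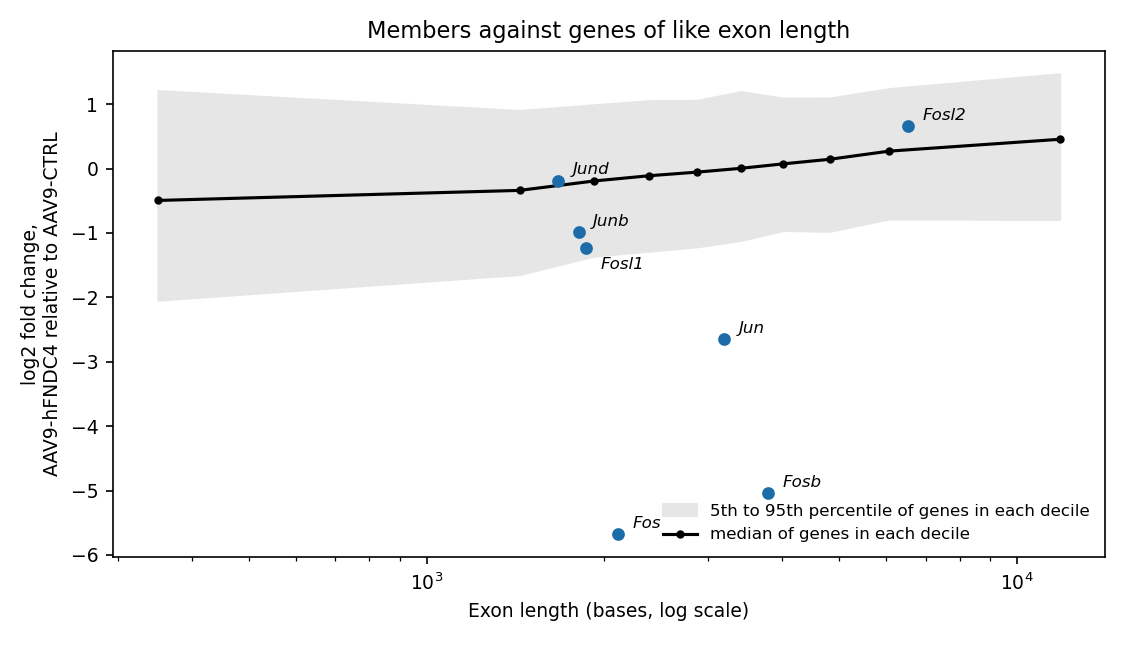
Log2 fold change of each gene (blue points) against its exon length in bases (log scale), with the median (black line) and the 5th to 95th percentile (grey band) of the genes in each decile of exon length. The medians rise from -0.49 to 0.46, and Fos, Fosb and Jun lie far below the band.

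Per kb of exon, which allows levels to be set side by side between genes, the make-up of the family differed between the groups. Under AAV9-CTRL the order was Jund (107 ± 6.32 CPM per kb), Junb (94.2 ± 1.17), Fos (76.5 ± 16.5), Fosl1 (75.1 ± 22.8), Jun (73.1 ± 6.46), Fosb (33.4 ± 2.74) and Fosl2 (18.8 ± 2.42). Fos, Fosl1 and Jun overlapped in that order. The place of Jund rests on its GENCODE length of 1668 bases, since with the RefSeq span of 2878 it was at 62.2 ± 3.66 CPM per kb, below Junb, Fos, Fosl1 and Jun. Under AAV9-hFNDC4 the order was Jund (94.4 ± 12.4 CPM per kb), Junb (47.3 ± 2.13), Fosl1 (32.0 ± 12.1), Fosl2 (29.6 ± 3.67), Jun (11.6 ± 2.37), Fos (1.49 ± 0.196) and Fosb (1.01 ± 0.398). Here Fosl1 overlapped with both of its neighbours, and Fos with Fosb. With the RefSeq span, Jund was at 54.7 ± 7.16 CPM per kb. Fosl2, the lowest member under AAV9-CTRL, was thus well above Fos, Fosb and Jun under AAV9-hFNDC4.

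The summed level of the family was 478 ± 18.5 CPM per kb under AAV9-CTRL and 217 ± 32.1 under AAV9-hFNDC4. FOS genes together went from 204 ± 21.2 to 64.0 ± 15.7 CPM per kb, and JUN genes from 275 ± 11.2 to 153 ± 16.6. Within the FOS genes, Fos and Fosb made up 54.2% ± 9.70 under AAV9-CTRL and 4.05% ± 1.06 under AAV9-hFNDC4, so the FOS pool of the latter was nearly all Fosl1 and Fosl2. The ratio of Fos to Fosl2 per kb was 2.71, 5.40 and 4.45 in the AAV9-CTRL libraries and 0.0499, 0.0507 and 0.0504 in the AAV9-hFNDC4 libraries. Jund made up 22.5% ± 1.91 of the family under AAV9-CTRL and 43.5% ± 1.17 under AAV9-hFNDC4, while its own level had no call. With RefSeq spans these shares were 14.4% ± 1.36 and 31.0% ± 1.03. The ratio of FOS to JUN genes was 0.744 ± 0.0941 and 0.414 ± 0.0566. That ratio depends on the lengths used, being 0.947 and 0.924 with no length and 0.896 and 0.562 with RefSeq spans for the intronless genes. These values are descriptions of transcript levels, with no test, and do not measure dimers. The whole exon length was used for Fosl1 too, of which 62.4% overlaps Ccdc85b. How that overlap bears on its level per kb, its share and the ratio was not tested.

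**Figure D4:**
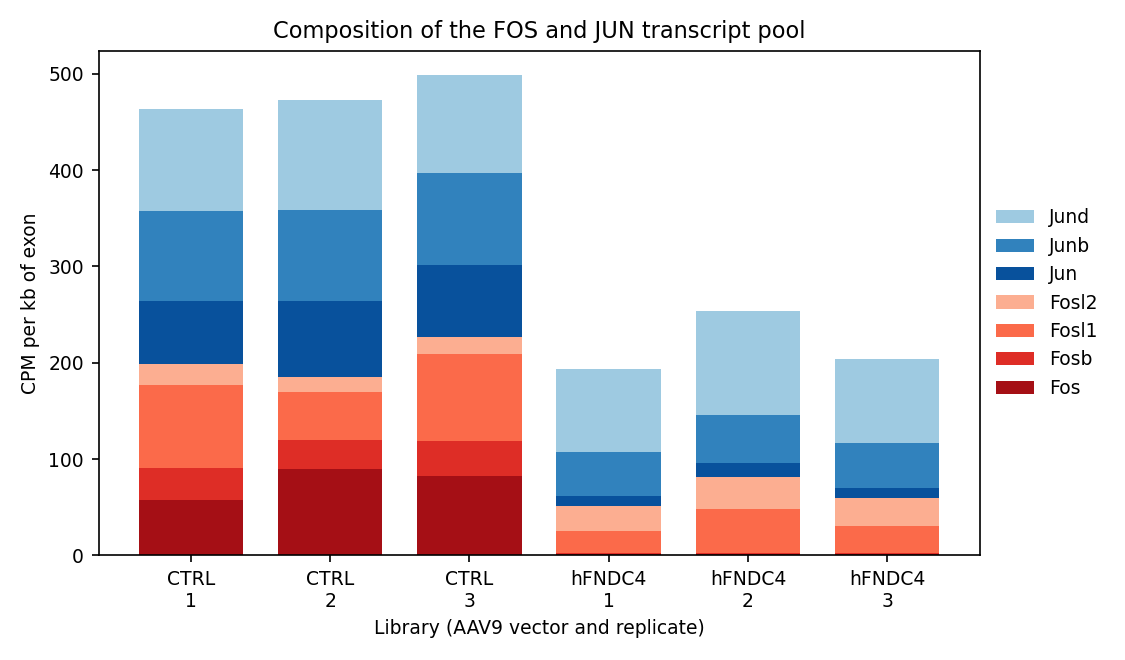
Stacked CPM per kb of exon of the 7 genes in each library (bars start at 0; FOS genes in reds, JUN genes in blues). The AAV9-CTRL bars reach 463 to 499 and the AAV9-hFNDC4 bars 194 to 254, in which the Fos and Fosb layers are too thin to see.

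Early gene transcripts are known for AU-rich elements in the 3′ UTR that speed their decay. The nonamer TTATTTATT was found in Fos and Fosl2, at base 655 and base 3692 of the 3′ UTR, and in no other member. These 30-base windows are shown because they belong to the member that fell most and the member that rose, with the nonamer in capitals.
Fos: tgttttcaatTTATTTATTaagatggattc
Fosl2: atttattttaTTATTTATTttaaatgttta
The pentamer ATTTA occurred 4 times in Fos, 1 time in Fosb, 1 in Fosl1, 8 in Fosl2, 4 in Jun, 2 in Junb and 1 in Jund. Of 12263 tested genes with a 3′ UTR, 67.9% held the pentamer and 7.88% the nonamer. Genes with the nonamer had a median log2 fold change of 0.09 and those without it -0.03. The nonamer was present in Fos and Fosl2, which moved in opposite directions. Whether it bears on their changes was not tested.

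Regulators of AU-rich decay and of AP-1 protein turnover were lower in 5 of 11 (45.5%) and higher in 0 (list median -0.32 on the log2 scale). Shares over all genes tested were 25.0% lower and 22.1% higher. The count of 0 higher held in edgeR, DESeq2 and limma-voom, and 1 gene, the ubiquitin ligase Itch, was higher at an unadjusted p under 0.05. Zfp36, which binds AU-rich elements and promotes decay, was lower at 11.6 ± 0.850 against 26.9 ± 3.40 CPM (log2 fold change -1.22, SE 0.14). Its relative Zfp36l1 (-0.96), Hnrnpd (-0.66), which also binds these elements, and Elavl1 (-0.78), a stabilising binder, were lower too. Khsrp, a decay factor, was called at -0.32 (edgeR adjusted p = 0.0291), a call lost in 8 of 15 alternatives, among them leaving out any library but AAV9-CTRL replicate 2.

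Among 11 tested dimer partners and relatives of AP-1 outside FOS and JUN, 4 were lower, 3 higher and 4 did not pass (median log2 fold change -0.27). The shares, 36.4% lower and 27.3% higher, stand beside 25.0% and 22.1% of all genes tested. The small MAF proteins, which pair with FOS and with NRF factors, made up most of the lower side. Mafk was at 33.0 ± 4.20 against 130 ± 29.4 CPM (-1.97, SE 0.17), Maff at 20.2 ± 8.005 against 84.9 ± 20.7 CPM (-2.08, SE 0.27), and Mafg had -0.54. Mafa, a large MAF factor, had -0.95. The calls of Mafg and Mafa were each lost without AAV9-CTRL replicate 2, where Mafg was -0.27 (edgeR adjusted p = 0.0964) and Mafa -0.71 (adjusted p = 0.0897), and without AAV9-hFNDC4 replicate 3. Mafg also lost its call without AAV9-hFNDC4 replicate 1, and Mafa without AAV9-hFNDC4 replicate 2. On the higher side were Atf7, a relative of Atf2, at 249 ± 17.0 against 133 ± 22.4 CPM (0.90, SE 0.13, and 0.51 with the length correction), Atf2 (0.43, and 0.28 with the GC correction), a JUN partner at CRE sites, and Jdp2 (0.42, and 0.63 with the length correction), a repressor that pairs with JUN.

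Genes of the MAPK cascade, which signals to the FOS and JUN promoters and phosphorylates the proteins, were lower in 4 of 29 cases, higher in 7 and not past the test in 18 (13.8% and 24.1%, median log2 fold change 0.11). Over all genes tested, 25.0% were lower and 22.1% higher, so the higher share was close to the background. Map3k5 (0.83, SE 0.11) and Map3k1 (1.17, SE 0.15), upstream kinases of the stress branch, were higher. Map2k3 (-0.81), an activator of p38 kinases, Map2k2 (-0.64), an activator of ERK, Mapkapk2 (-0.69), a p38 substrate, and Mapk11 (-0.79), the beta form of p38, were lower. Mapk11 lost its call without AAV9-CTRL replicate 2 (-0.49, edgeR adjusted p = 0.0513) or AAV9-hFNDC4 replicate 3 (adjusted p = 0.0654). These are transcript levels and say nothing of kinase activity.

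Factors that act at early gene promoters were higher in 6 of 15 (40.0%) and lower in 1 (6.67%), with a list median of 0.38 on the log2 scale. Of all genes tested, 22.1% were higher and 25.0% lower. Srf, the serum response factor that binds the CArG box, was the member that fell, at 55.4 ± 2.37 against 99.4 ± 6.57 CPM (-0.84, SE 0.10). Sp1 (0.84, SE 0.12), Elk1 (0.59, SE 0.11), an SRF cofactor, and Mef2a (0.58, SE 0.13) were higher. With the exon length correction 3 were called higher in place of 6, and Sp1 stood at 0.51 and Mef2a at 0.38.

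Genes known as AP-1 targets were lower in 16 of 28 tested (57.1%), higher in 2 and not past the test in 10 (list median -0.76 on the log2 scale). The background was 25.0% lower and 22.1% higher. Hbegf, an EGF receptor ligand, was at 11.8 ± 1.85 against 155 ± 22.8 CPM (-3.71, SE 0.16). Plaur, the urokinase receptor, had -1.70 (SE 0.17), Il11, a cytokine, -2.78 (SE 0.29) and Areg, another EGF receptor ligand, -2.19 (SE 0.29). The higher members were Vegfa, the vascular growth factor, by 0.86 (SE 0.15) and Gja1, connexin 43, by 0.38 (SE 0.12). Gja1 lost its call without AAV9-hFNDC4 replicate 2, AAV9-CTRL replicate 2 or AAV9-CTRL replicate 3 (edgeR adjusted p = 0.0820, 0.0505 and 0.0550). With the exon length correction 5 targets were called higher. Several of these genes answer to other factors as well, and the table does not show AP-1 binding.

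Other early genes were lower in 16 of 23 tested (69.6%) and higher in 4 (17.4%), with a list median of -1.57 on the log2 scale. The background was 25.0% lower and 22.1% higher. Ccn1, a matricellular protein, was at 12.6 ± 1.61 against 212 ± 47.0 CPM (-4.07, SE 0.18), and Egr1, a zinc finger factor, at 85.4 ± 15.6 against 560 ± 19.6 CPM (-2.71, SE 0.14). Ier5 had -2.45 (SE 0.10) and Gadd45b, a stress gene, -2.25 (SE 0.13). The members that rose beside Fosl2 were Egr3 (1.83, SE 0.23), a relative of Egr1, the orphan receptor Nr4a2 (0.96, SE 0.17), the small GTPase Gem (2.45, SE 0.47) and the growth regulator Myc (0.44, SE 0.14). Myc lost its call without AAV9-hFNDC4 replicate 2 (0.29, edgeR adjusted p = 0.0986) or AAV9-CTRL replicate 2 (0.34, adjusted p = 0.0583).

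Heat shock genes were lower in 10 of 10 cases, beside 25.0% of all genes tested, with a list median of -1.84 on the log2 scale. Hspa1b was at 3.71 ± 1.16 against 2715 ± 437 CPM and Hspa1a at 0.0366 ± 0.0424 against 178 ± 74.0 CPM, near-identical copies whose reads may be split between them. Hsph1 (-2.87, SE 0.18) and Bag3 (-2.10, SE 0.11), a co-chaperone, were lower as well. Whether this pattern and that of Fos, Fosb and Jun share a source was not tested.

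**Figure D5:**
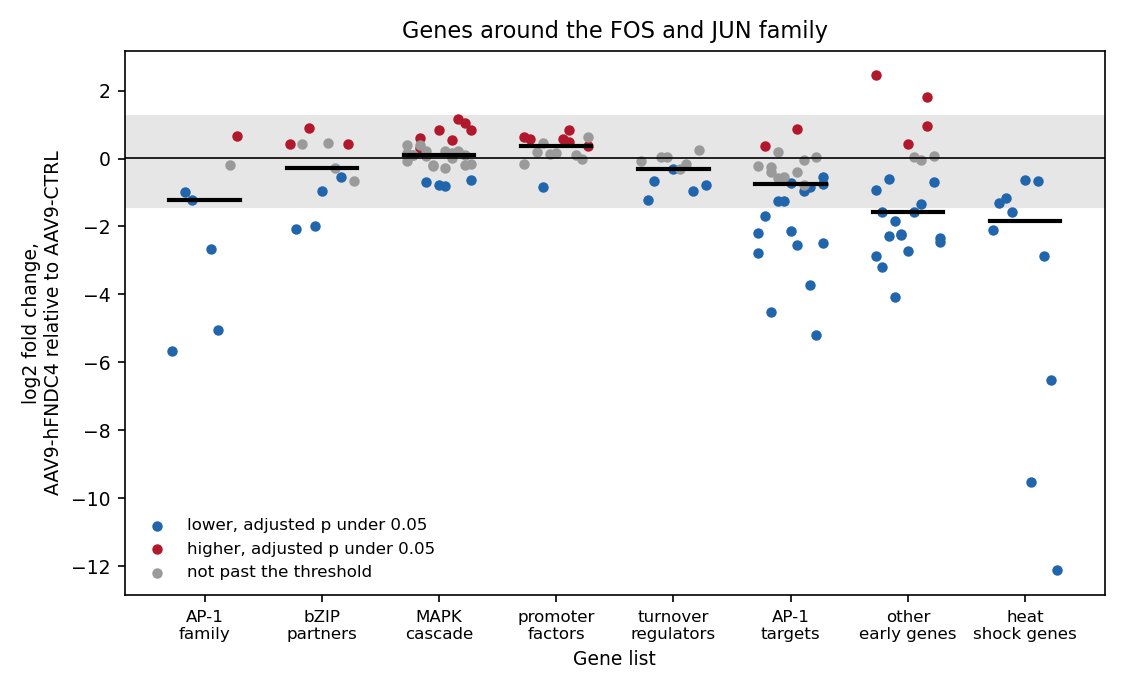
Log2 fold change of each tested gene in 8 gene lists, AAV9-hFNDC4 relative to AAV9-CTRL, coloured by edgeR call (blue lower, red higher, grey not past the threshold); black lines are list medians and the grey band holds the 5th to 95th percentile of all genes tested. The medians are lowest for heat shock genes (-1.84), other early genes (-1.57) and the AP-1 family (-1.23), and close to 0 for the MAPK cascade (0.11).

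The genes with the profile most like each member over the 6 libraries were found by the root mean square distance between log2 (CPM + 0.5) values, centred per gene, among 11337 genes with a mean of at least 1 CPM. For Fos they were Ampd1 (0.354), Fosb (0.486) and L3mbtl1 (0.510), and for Fosb they were L3mbtl1 (0.423), Fos and Ampd1 (0.488). Fos and Fosb thus were among each other's closest 3. Nearest to Jun were Slc23a3 (0.121), Homer1 (0.135) and Ryr1 (0.151), to Fosl1 Nlrp3 (0.101), Scg5 (0.108) and Rrp12 (0.114), and to Fosl2 Sec16a (0.0265), Kdm5c (0.0284) and Zfp317 (0.0385). Junb lay nearest to Smim26 (0.0430), Mrpl16 (0.0473) and Zfp622 (0.0480), and Jund to Gorab (0.0244), Sertad1 (0.0435) and Smad2 (0.0455). Distances were larger for the members with the larger changes, and the points of each profile share the same 6 libraries. The added 0.5 CPM compresses changes near the floor, so a near profile need not have a like fold change. Ampd1 went from 27.2 to 0.127 CPM (log2 fold change -7.70), L3mbtl1 from 21.7 to 0.455 CPM (-5.57) and Ryr1 from 2.56 to 0.0551 CPM (-5.46). Fos, Fosb and Jun had -5.68, -5.05 and -2.65.

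The members lie on 6 chromosomes, with Junb and Jund both on chromosome 8. Of the 14 nearest protein-coding genes on either side of them, 6 were lower, 2 higher and 6 did not pass the test. Among all genes tested, 25.0% were lower and 22.1% higher. The higher genes were Jdp2, 121754 bases from Fos, and Mysm1 (0.84, SE 0.12, and 0.53 with the length correction), a histone deubiquitinase next to Jun. Ercc1 beside Fosb (-0.88, SE 0.13) and Lsm4 beside Jund (-1.01, SE 0.12, and -0.58 with the length correction) were among the lower genes. Iqcn, 2841 bases from Jund, had the largest change (-5.51, SE 0.83). It rests on few counts, 98 in all under AAV9-CTRL and 2 under AAV9-hFNDC4. Of the other lower genes, Fibp, Rnaseh2a and Plb1 kept their calls in 7, 8 and 11 of 15 alternatives, and all 3 lost them without AAV9-hFNDC4 replicate 3. Exact sequence shared between member transcripts was short, at most 20 bases (Jun and Jund).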

How the data were processed

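RNA was extracted from material labelled as mouse heart and sequenced as 6 libraries, per the labels' protocols. The authors deposited raw read counts per gene symbol, with no normalization. The submitters' processing notes name fastp, HISAT2, HTSeq, R 3.2.0, DESeq2 and the build GRCm38 (mm10). Annotation release, strand setting, RNA selection and the handling of multi-mapping reads are not given here.

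Counts were tested with edgeR 4.0.16 in R 4.3.3 (filterByExpr, TMM, robust quasi-likelihood F test), with Benjamini-Hochberg adjustment over the 14663 tested genes and an adjusted p under 0.05 as the call. The SE is the size of the log2 fold change divided by the square root of F. CPM values use TMM library sizes, except those of the marker lists, which use library totals. Levels per kb divide CPM by the length of the union of exons in the GENCODE vM21 basic annotation (GRCm38). Promoter sequences are those of RefSeq on GRCm38.p6.

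The members and the gene lists were chosen with earlier results of these data known. Named were all 7 members, from each list the 4 genes of lowest p and every called gene where 5 or fewer were called in a direction, the 3 genes with the most similar profile to each member, and genes that describe the material. The genes next to the members were added to these. The script was tested on simulated data. Alternatives were upper-quartile and RLE scaling, testing without the low-count filter, a minimum of 1 CPM in 3 libraries, DESeq2 1.42.0, limma-voom (limma 3.58.1), the replicate number as a block, exon length and GC corrections (loess, span 0.4, as offsets), leaving out each library, and, for composition, other gene lengths.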

Additional observations from a re-analysis of the deposited data

How the results depend on the processing

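The 7 genes gave 1 called higher in every alternative, and 4 to 6 called lower. Fosl1 lost its call without the low-count filter (-1.22), which moved the median of all genes to -0.15, and Jund gained one when AAV9-hFNDC4 replicate 2 was left out, with a range of -0.29 to -0.12 over the libraries left out. Over 15 alternatives the log2 fold change of Fos lay between -5.82 and -5.49, Fosb -5.37 and -4.80, Fosl1 -1.58 and -1.01, Fosl2 0.39 and 0.78, Jun -2.83 and -2.48, and Junb -1.02 and -0.75. The share of higher genes among all calls, 46.9% as reported, ran from 43.6% to 52.0% (upper-quartile normalization).

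Deviations from the group means correlated at -0.142, -0.284 and -0.120 for same-numbered libraries, and at -0.112 to 0.197 for different-numbered ones. Centred within groups of 3, these values are not independent and cannot settle whether replicate numbers pair the libraries. With the replicate block, 5 members were lower and 1 higher, all called genes were 5743 in place of 6908, and AP-1 targets called higher were 1. That count was 5 with the exon length correction and 1 to 2 with a library left out. AP-1 partners called lower were 2 with the GC correction and 2 to 5 with a library left out, promoter factors called higher were 3 with the length correction, and turnover regulators called higher were 1 with upper-quartile normalization or the 1 CPM filter and 0 to 1 with a library left out. Fibp, next to Fosl1, was called lower and turned to 0.042 with the length correction. With no length, Fos and Fosb were 2.74% of the FOS genes under AAV9-hFNDC4, and the FOS to JUN ratio was 0.947 and 0.924 (AAV9-CTRL and AAV9-hFNDC4). With RefSeq spans for the intronless genes, chosen after seeing the data, the ratio was 0.896 and 0.562 and the family sum 432 and 177 CPM per kb. The causes of these shifts were not tested. Lengths come from GENCODE, which may not be the annotation that was counted.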
